A study of Mus musculus with 29 samples.

Results

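The transcription factors that are best known from blood stem cells and early progenitors were followed in developing B cells with and without the B cell identity factor Pax5. The group holds 10 genes chosen by name, Meis1, Hoxa9, Gata2, Lmo2, Tal1, Runx1, Gfi1, Gfi1b, Myb and Mef2c, among 24732 entries of the tables made on the mm9 genome and 25588 entries of those made on mm10. All 10 were found in every RNA-seq library, each as a single entry. The values are TPM, transcript abundances per transcript length that the authors scaled to a sum of 1000000 in each library, so levels can be compared between genes of a library, but the depth in reads is unknown.

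Polyadenylated RNA was sequenced from pro-B cells of C57BL/6 mice, sorted directly from bone marrow. The mm9 tables hold 3 wild-type libraries and 2 libraries of Pax5(-/-) mice, which lack Pax5 in every cell. The age of these mice is not given in the sources used here. The mm10 tables hold 3 libraries of pooled pro-B cells from mice aged 3 weeks that the labels name Pax5(+/+) Meox2-cre, whereas the study's list of sequencing experiments gives their genotype as Pax5(+/-) Meox2(Cre/+). Meox2-Cre is a Cre recombinase expressed from the Meox2 locus throughout the embryo. The study's gates differed: pro-B cells were sorted as B220+ Kit+ CD2- IgM- and Pax5-deficient progenitors as B220+ Kit+ Ly6D+, each with a further surface marker, so gate and genotype cannot be told apart. Labels do not say that replicates came from separate mice, and p-values then measure the spread between these libraries, which may be technical. Replicate numbers only name the libraries.

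The labels were checked against the sort genes. Ly6d, a surface marker of committed lymphoid progenitors, was 190 to 270 TPM in wild-type against 2258 and 3033 TPM in Pax5(-/-). The Pax5 entry held 342 to 391 TPM in wild-type and still 43.0 and 39.1 TPM in Pax5(-/-), a value over the whole gene that does not test the deleted part. The summed TPM of 8 B lineage genes was 11635 to 14193 in wild-type and 3177 to 3215 in Pax5(-/-). Relative depth, taken from the steps between low values, ran from 0.855 to 1.54 times that of wild-type replicate 1 in the mm9 tables. Of the wild-type libraries, replicate 1 had the lowest summed TPM of granulocyte and macrophage genes (46.2, against 128 and 115). It was also lowest for erythroid and megakaryocyte genes (29.5, against 57.6 and 84.1), where replicate 3 was highest. The B lineage sum was lowest in replicate 3. Results that rest on this library are given with and without it.

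These factors control which lineages a blood progenitor can enter. Tal1, Lmo2 and Gata2 act in multiprotein complexes on DNA in stem cells, and Tal1 and Lmo2 go on to act with Gata1 in red cell and platelet precursors. Meis1 and Hoxa9 are homeobox partners that maintain self-renewal, and Runx1 is the DNA-binding subunit of core-binding factor. Gfi1 and Gfi1b are closely related zinc-finger repressors that silence genes through the demethylase Kdm1a and its cofactor Rcor1, Gfi1 mainly in lymphoid and granulocytic cells and Gfi1b in erythroid and megakaryocytic cells. Myb and Mef2c act both in progenitors and in early B cell development.

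In wild-type pro-B cells the 10 genes spanned a wide range. Myb led at 526 ± 118 TPM (SD, n = 3), in percentiles 98.3 to 99.2 of all entries of its library. Runx1 (65.2 ± 4.99 TPM) and Mef2c (63.5 ± 3.01 TPM) followed and overlapped in range, as did Lmo2 (49.7 ± 13.5 TPM) and Gfi1 (36.6 ± 7.19 TPM). Gfi1b (12.8 ± 2.72 TPM), Meis1 (12.6 ± 1.63 TPM), Tal1 (9.08 ± 3.47 TPM) and Hoxa9 (4.59 ± 0.687 TPM) came next, each overlapping with its neighbour in this order. Gata2 was lowest at 0.728 ± 0.364 TPM (SD, n = 3 for each). The Meox2-cre libraries, which were aligned to another build with other software and were therefore not tested against the others, gave the same order of means, from Myb at 615 ± 12.6 TPM to Gata2 at 0.851 ± 0.346 TPM (SD, n = 3), and there only the neighbours Meis1 and Tal1 overlapped. In the Pax5(-/-) libraries the order was different: Lmo2 stood second to Myb, ahead of Runx1 and Mef2c, and Gfi1b stood second to last, below Tal1 and Hoxa9.

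**Figure D1:**
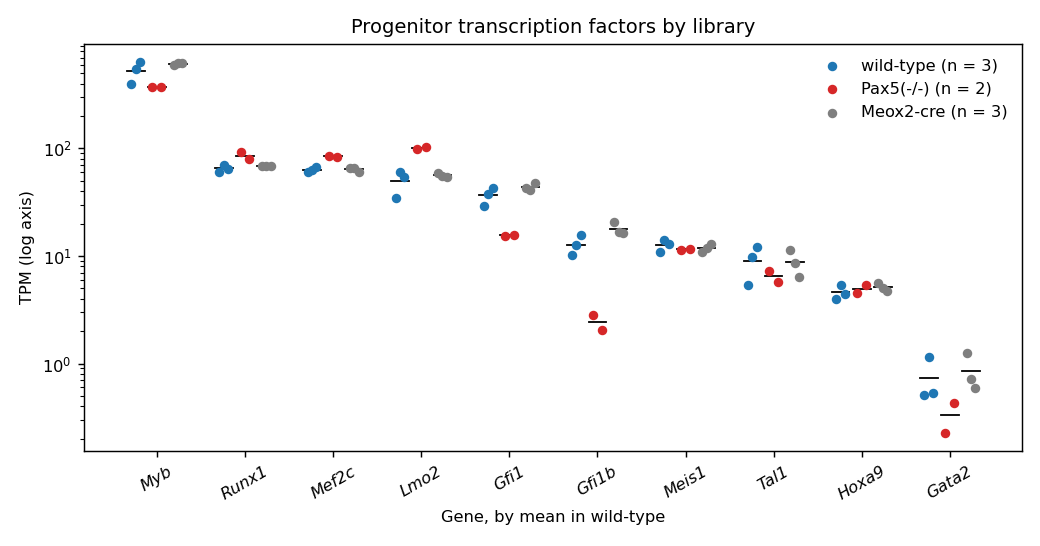
TPM (log axis) of each of the 10 genes in the 3 wild-type (blue), 2 Pax5(-/-) (red) and 3 Meox2-cre (grey) libraries, with genes in the order of their wild-type means. Points are libraries and black lines are group means. The Pax5(-/-) points of Gfi1, Gfi1b, Myb and Gata2 lie below all wild-type points, and those of Lmo2, Runx1 and Mef2c lie above them.

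The comparison of Pax5(-/-) with wild-type asked which of these genes differ when Pax5 is missing. Among the 9 members whose mean exceeded 1 TPM in wild-type or Pax5(-/-), Lmo2, Runx1 and Mef2c rose, Gfi1 and Gfi1b fell, and Meis1, Hoxa9, Tal1 and Myb did not pass an adjusted p-value of 0.05 (limma with Benjamini-Hochberg adjustment over 12066 genes). Gata2 was too low to be tested. Of all genes tested, 15.6% were higher and 21.5% were lower at this threshold, against 3 and 2 of the 9 members. The median log2 fold change was -0.11 over the members and -0.12 over all genes tested. Gfi1b was the only member that also met the study's limits for a regulated gene, with over 3-fold difference and over 5 TPM in the higher genotype, limits that 3.15% of all genes met as lower and 2.71% as higher. At an unadjusted p-value below 0.05, 3 members were higher and 3 lower. The share of all genes at that limit was not counted, so the unadjusted counts here and for the lists below have no background beside them. It cannot be smaller than the 15.6% higher and 21.5% lower at the adjusted limit. The shares of 15.6% higher and 21.5% lower at the adjusted limit also apply to each gene list counted below. Both Pax5(-/-) libraries lay above every wild-type library for 3 of the 9 members and below for another 3, and the groups overlapped for 3, while over all genes tested 26.1% lay above and 37.4% below. In bulk samples, fewer cells of a type and less RNA per cell cannot be told apart.

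Without wild-type replicate 1, 4 members were lower (Gfi1, Gfi1b, Tal1 and Myb) and 2 higher (Lmo2 and Mef2c). The same step raised the number of lower genes from 2596 of 12066 to 3233 of 12127 over all genes tested and moved that of higher genes from 1885 to 1842. Without wild-type replicate 3, 2 members were lower and 2 higher, beside 2264 lower and 1977 higher of 12003 genes. The calls of Lmo2, Runx1 and Mef2c as higher needed both Pax5(-/-) libraries, and over all genes tested calls were lost as well. Without Pax5(-/-) replicate 1 or 2, their log2 fold changes were 1.07 or 1.03, 0.30 or 0.49, and 0.40 or 0.41. Lowering the fold limit from 3 to 2 added Gfi1 to the lower and Lmo2 to the higher calls, whereas testing against 3-fold itself left no call. Over all genes tested, the limit of 2 gave 753 lower and 630 higher calls, and the test against 3-fold gave 153 and 118.

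Gfi1b showed the largest change of the group. It lies on the minus strand at chr2:28464970-28477502 (mm9, GENCODE annotation). Its wild-type values were 10.1, 12.6 and 15.6 TPM in replicates 1, 2 and 3, and its Pax5(-/-) values were 2.85 and 2.07 TPM. Both Pax5(-/-) libraries lay below every wild-type library, and their mean was 0.192 times the wild-type mean. Gfi1b fell by 2.16 on the log2 scale (SE 0.24, adjusted p = 5.6e-04 by limma), and its adjusted p-value stayed below 0.05 with any single library left out, at most 0.025. The Meox2-cre libraries held 20.5, 16.7 and 16.2 TPM, all above the highest wild-type value, a difference that was not tested.

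Its paralog Gfi1, on the minus strand at chr5:108145674-108155056 (mm9), was more abundant and fell too. The wild-type libraries held 28.9, 37.9 and 43.1 TPM and the Pax5(-/-) libraries 15.5 and 15.6 TPM, again with no overlap. Gfi1 fell by 1.19 on the log2 scale (SE 0.18, adjusted p = 0.0024), and without Pax5(-/-) replicate 2 the fall was 1.20 with an adjusted p-value of 0.051. The Meox2-cre values were 42.7, 40.9 and 48.0 TPM. A gene annotated on the opposite strand, A430072P03Rik, overlaps the span of Gfi1. Reads were counted without regard to strand, and whether the 2 genes share exons was not examined, so its transcripts may add to the Gfi1 values.

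Within a library, Gfi1 exceeded Gfi1b 2.71 to 2.93 times in wild-type, 4.78 and 6.25 times in Pax5(-/-) and 2.05 to 2.90 times in Meox2-cre cells, in ratios of TPM + 0.5. The log2 ratio was 1.49 ± 0.06 (SD, n = 3) in wild-type and 2.45 ± 0.27 (SD, n = 2) in Pax5(-/-). The difference of 0.97 gave p = 0.1 in an exact two-sided permutation test, the smallest value that 3 against 2 libraries allow, so the design cannot reach 0.05.

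The promoters of the repressor pair are shown because Gfi1 and Gfi1b were the members that fell. Each line is the 250 bases before a transcription start, 5′ to 3′ on the strand of the gene, from RefSeq on GRCm38.p6, a later build than that of the mm9 tables. Capitals mark AAATCA, a stretch of the site that Gfi1 and Gfi1b bind, which was sought on both strands. Shorter forms of the site, such as AATC, were not sought or marked. Further searches, also on both strands, were for the letters AGATAA bound by GATA factors, for the Runx core written TGTGGT, and for an E-box spelled CAGCTG. The positions are chr2:28621983-28622232 for Gfi1b and, for the upstream and downstream starts of Gfi1, chr5:107725806-107726055 and chr5:107724344-107724593, all on the minus strand.
Gfi1b: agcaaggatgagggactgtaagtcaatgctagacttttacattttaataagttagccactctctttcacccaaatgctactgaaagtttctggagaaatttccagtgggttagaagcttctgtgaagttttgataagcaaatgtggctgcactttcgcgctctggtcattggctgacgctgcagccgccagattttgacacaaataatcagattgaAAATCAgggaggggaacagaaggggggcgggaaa
Gfi1 upstream start: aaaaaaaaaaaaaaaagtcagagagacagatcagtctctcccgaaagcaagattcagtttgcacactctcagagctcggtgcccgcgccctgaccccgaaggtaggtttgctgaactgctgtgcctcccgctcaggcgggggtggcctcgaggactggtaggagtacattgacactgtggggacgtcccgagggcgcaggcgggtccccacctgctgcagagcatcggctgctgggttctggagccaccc
Gfi1 downstream start: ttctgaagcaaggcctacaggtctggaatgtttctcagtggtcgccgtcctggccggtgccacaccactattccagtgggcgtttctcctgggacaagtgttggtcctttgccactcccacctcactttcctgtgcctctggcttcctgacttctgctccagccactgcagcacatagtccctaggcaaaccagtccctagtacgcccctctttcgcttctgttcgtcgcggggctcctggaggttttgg

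The Gfi1b window held AAATCA at position -34 from the start, and neither Gfi1 window held any of these letter runs. RefSeq promoters were matched for 9 of the 10 members, with 15 windows of 250 bases before and 50 after a start. The run AAATCA was found in 2 of the 15 windows (Gfi1b and Mef2c) and in 14% of all 32851 promoters of the same length. The GATA core was in the window of Tal1 (11.2% of all promoters), the Runx core in those of Meis1 and Runx1 (16.8%), and the E-box in that of Gata2 (16.3%). A match describes letters only and no binding. The Gfi1b window was 44.4% G and C, and the upstream and downstream Gfi1 windows were 59.2% and 57.6%.

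Most of the cofactors of these repressors did not pass the test. Of the 6 listed corepressors, 0 rose and 1 fell (limma), beside 15.6% and 21.5% of all genes tested. At an unadjusted p-value below 0.05, 0 were higher and 2 lower. Rcor1, the scaffold that links Kdm1a to its targets, fell by 0.47 (SE 0.15, adjusted p = 0.042), from 45.3, 54.1 and 57.7 TPM to 41.3 and 33.8 TPM. Kdm1a, Rcor3, Hdac1, Hdac2 and Ehmt2 did not pass.

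Markers of other lineages moved beside the repressors. The summed TPM of 7 erythroid and megakaryocyte entries other than globins was 29.5, 57.6 and 84.1 in wild-type, 17.1 and 7.58 in Pax5(-/-) and 83.7, 60.1 and 45.4 in Meox2-cre. Of the 6 markers of this list that were tested, 0 rose and 3 fell, beside 15.6% and 21.5% of all genes tested. At an unadjusted p-value below 0.05 the counts were the same. Among those that fell were Klf1, a master regulator of red cell genes (log2 fold change -1.90, adjusted p = 0.011), and Epor, the erythropoietin receptor (-2.08, adjusted p = 0.020). The listed globins do not compare the tables: the entries of Hbb-b1, Hba-a1 and Hba-a2 were at 0 in all libraries of both builds except for 0.265 TPM of Hba-a1 in Pax5(-/-) replicate 1, and Hbb-b2, at 2315 to 3475 TPM in the Meox2-cre libraries, was not matched in the mm9 tables. Granulocyte and macrophage markers summed to 46.2 to 128 TPM in wild-type and 71.9 and 86.2 TPM in Pax5(-/-), so the groups overlapped, and of 7 tested 1 rose (Ctsg) and 2 fell (Elane and Itgam). The part of these lineages in the values of Gfi1b and Gfi1 was not tested.

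Tal1, the basic helix-loop-helix factor that founds the blood lineages, spread widely between wild-type libraries. It lies on the plus strand at chr4:114729031-114744360 (mm9). The wild-type values were 5.33, 9.73 and 12.2 TPM, the Pax5(-/-) values 7.31 and 5.77 TPM and the Meox2-cre values 11.3, 8.70 and 6.42 TPM. The groups overlapped, since wild-type replicate 1 was the lowest library of the mm9 tables, and the log2 fold change was -0.38 (SE 0.33, adjusted p = 0.40). Without that library it was -0.70 (adjusted p = 0.034). Without wild-type replicate 3, which held the highest Tal1 value, it was -0.14 (adjusted p = 0.74 by limma). The estimate thus moved in either direction with the wild-type library left out.

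Gata2, a zinc-finger factor of stem cells, mast cells and early erythroid progenitors (chr6:88143885-88157024, plus strand, mm9), was the lowest member in every library. The wild-type libraries held 0.508, 1.15 and 0.528 TPM, the Pax5(-/-) libraries 0.228 and 0.430 TPM and the Meox2-cre libraries 1.24, 0.723 and 0.587 TPM. Both Pax5(-/-) values lay below all wild-type values, without a test. Mast cell and basophil genes summed to 3.69 to 11.8 TPM in wild-type and 7.66 and 16.8 TPM in Pax5(-/-), and of 3 tested 0 passed (limma), with 1 higher and 0 lower at an unadjusted p-value below 0.05.

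The values of Tal1 and Gfi1b in single libraries can be set beside those of erythroid genes. Gata1, the erythroid GATA factor, held 3.93, 8.94 and 11.3 TPM in wild-type and 1.95 and 1.38 TPM in Pax5(-/-), and it fell by 1.88 (SE 0.41, adjusted p = 0.010). Klf1 held 8.50, 22.8 and 23.1 TPM in wild-type and 4.73 and 3.47 TPM in Pax5(-/-). For Tal1, Gfi1b, Gata1, Klf1 and Epor, replicate 1 was the lowest and replicate 3 the highest of the wild-type libraries, and Pax5(-/-) replicate 1 exceeded Pax5(-/-) replicate 2. In the Meox2-cre libraries, replicate 1 was the highest for all of these genes and for Gata2, with Gata1 at 15.3, 7.59 and 2.56 TPM and Klf1 at 33.1, 17.7 and 13.5 TPM. Some genes that are not erythroid had the same lowest and highest wild-type library. These were Gfi1, Myb and the B lineage genes Rag1 (267, 338 and 363 TPM), Il7r (81.7, 121 and 141 TPM) and Ebf1. The other listed B lineage genes differed, with Cd79a, Cd79b and Vpreb1 lowest in replicate 3 and Igll1 and Blnk highest in replicate 2. Hbb-b2 did not follow the order of the Meox2-cre libraries, being highest in replicate 2 (2705, 3475 and 2315 TPM). What the erythroid transcripts add to the values of Tal1, Gfi1b and Gata2 was not tested.

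**Figure D2:**
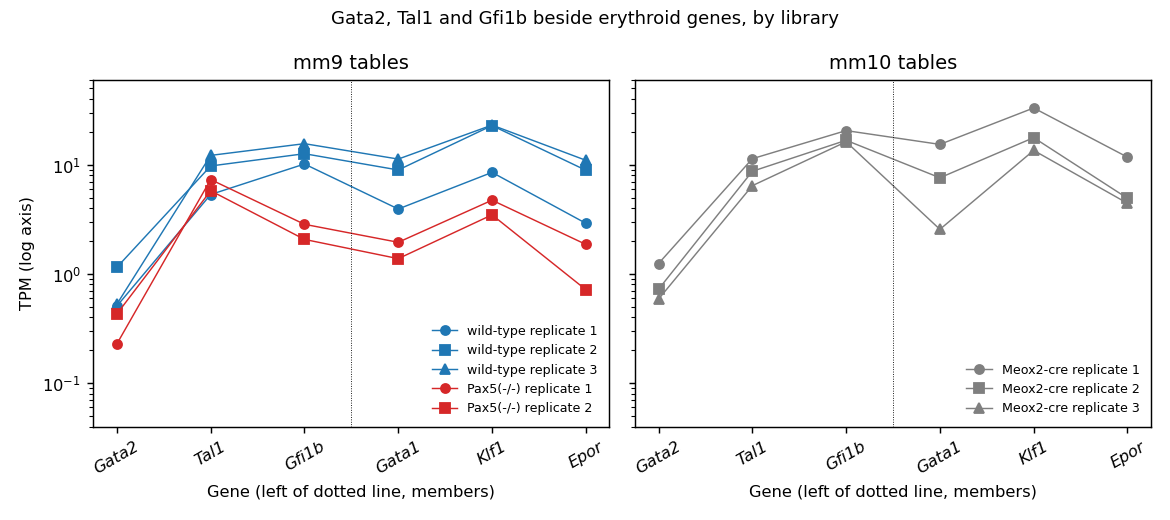
TPM (log axis) of Gata2, Tal1 and Gfi1b, left of the dotted line, and of the erythroid genes Gata1, Klf1 and Epor, right of it. Each line joins the values of 1 library: left panel, wild-type (blue) and Pax5(-/-) (red) on mm9, and right panel, Meox2-cre (grey) on mm10, with the marker shape giving the replicate. Among wild-type libraries, replicate 1 is lowest for every gene from Tal1 to Epor, and the Pax5(-/-) lines lie below all wild-type lines from Gfi1b to Epor.

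Lmo2, the LIM-only bridge between Tal1 and GATA factors, rose. It lies on the plus strand at chr2:103798143-103822035 (mm9). The wild-type libraries held 34.6, 60.5 and 54.0 TPM and the Pax5(-/-) libraries 98.9 and 102 TPM, so both exceeded every wild-type library, and the log2 fold change was 1.05 (SE 0.22, adjusted p = 0.0091). Without wild-type replicate 1, the lowest library, it was 0.81 (adjusted p = 0.0031). With only 1 Pax5(-/-) library the adjusted p-values were 0.091 and 0.11. The Meox2-cre values were 58.7, 55.9 and 54.3 TPM. The opposite-strand gene 4931422A03Rik overlaps the span of Lmo2, and whether they share exons was not examined.

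The partners of Lmo2 and Tal1 changed in both directions. Of 12 tested genes of the LIM complex and of the blood factor heptad, 2 rose and 5 fell, beside 15.6% and 21.5% of all genes. Ldb1, the dimerising adaptor that Lmo2 binds, rose by 0.45 (SE 0.10, adjusted p = 0.0095), from a mean of 250.2 TPM to 342 TPM, and Ssbp2, which stabilises Ldb1, rose by 0.53 (adjusted p = 0.028). Lmo4, a LIM-only protein that binds Ldb1 too, fell by 1.48 (SE 0.18, adjusted p = 8.5e-04), from 73.0, 84.8 and 110 TPM to 28.6 and 33.9 TPM. Lmo2 and Lmo4 therefore changed in opposite directions, each without overlap between the groups.

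Of the 3 helix-loop-helix dimerisation partners of Tal1 tested, Tcf3 and Tcf4 fell. Tcf3, which encodes the E2A proteins required for B cell commitment, fell by 1.74 (SE 0.14, adjusted p = 1.1e-04), from a mean of 1261 TPM to 375 TPM, and Tcf4 fell by 0.69 (adjusted p = 0.0026), while Tcf12 had a log2 fold change of 0.05 (adjusted p = 0.76). The ETS factor Erg fell by 0.90 (SE 0.15, adjusted p = 0.0032), from 437 ± 73.5 TPM in 3 wild-type libraries to 233 ± 21.5 TPM in 2 Pax5(-/-) libraries (mean ± SD). Lyl1, the close relative of Tal1, did not pass and was far more abundant than Tal1 in every library, at 403 to 480 TPM in wild-type and 435 and 416 TPM in Pax5(-/-).

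Runx1 rose slightly. It lies on the minus strand at chr16:92601712-92826311 (mm9), where Gm16801 overlaps on the opposite strand. The wild-type libraries held 60.7, 70.6 and 64.3 TPM, the Pax5(-/-) libraries 91.7 and 80.1 TPM and the Meox2-cre libraries 68.9, 69.4 and 69.2 TPM. The groups did not overlap and the log2 fold change was 0.40 (SE 0.12, adjusted p = 0.034). This call did not hold without wild-type replicate 1 (0.35, adjusted p = 0.065), wild-type replicate 3 (0.39, adjusted p = 0.057), Pax5(-/-) replicate 1 (0.30, adjusted p = 0.24) or Pax5(-/-) replicate 2 (0.49, adjusted p = 0.10), nor with a variance prior that ignores expression level (adjusted p = 0.074).

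Its paralogs rose with it, while their common partner fell. Runx2, the factor of bone formation, rose by 2.52 (SE 0.32, adjusted p = 0.0010), from 0.696, 1.61 and 1.16 TPM to 6.99 and 10.8 TPM, and met the limits for a regulated gene. Runx3, a factor of T and NK cells, rose by 0.86 (SE 0.16, adjusted p = 0.0061), from a mean of 52.9 to 95.6 TPM. Cbfb, the subunit that does not bind DNA and that all Runx proteins share, fell by 0.68 (SE 0.12, adjusted p = 0.0047), from 164, 186 and 210 TPM to 114 and 118 TPM. Runx2 was the lowest of the family in every library.

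Myb, the factor needed for progenitor growth and for pro-B cells to form, remained the most abundant member in every library. It lies on the minus strand at chr10:20844736-20880790 (mm9), with Gm16786 on the opposite strand. The wild-type values were 398, 549 and 630 TPM, the Pax5(-/-) values 371 and 369 TPM and the Meox2-cre values 601, 620 and 624 TPM. Both Pax5(-/-) libraries lay below all wild-type libraries, although close to wild-type replicate 1, and the log2 fold change of -0.48 did not pass (SE 0.18, adjusted p = 0.075). Without wild-type replicate 1 it was -0.67 (adjusted p = 0.0058). Without wild-type replicate 3, the highest library, it was -0.34 (adjusted p = 0.15 by limma).

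Of the 4 genes of the Myb family and its coactivators, 0 rose and 3 fell (limma), beside 15.6% and 21.5% of all genes. At an unadjusted p-value below 0.05, 0 were higher and 4 lower, a count without a share over all genes at that limit. Mybl1 fell by 1.55 (SE 0.29, adjusted p = 0.0056) from 2.24, 3.17 and 3.44 TPM to 0.874 and 0.483 TPM. Mybl2, the cell-cycle member of the family, fell by 0.61 (adjusted p = 0.0090) and the acetyltransferase Crebbp by 0.72 (adjusted p = 0.028). The related coactivator Ep300 did not pass.

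Mef2c, a MADS-box factor that favours lymphoid over myeloid fate, rose. It lies on the plus strand at chr13:83643033-83806684 (mm9). The wild-type values were 60.9, 62.9 and 66.8 TPM, the Pax5(-/-) values 84.7 and 83.9 TPM and the Meox2-cre values 65.7, 66.2 and 61.0 TPM. The groups did not overlap and the log2 fold change was 0.41 (SE 0.10, adjusted p = 0.017). With a single Pax5(-/-) library, the adjusted p-value was 0.12 for either one.

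No other gene listed with Mef2c rose. Among 7 tested genes of the Mef2 family and of the class IIa deacetylases that bind and repress Mef2 proteins, 0 rose and 3 fell (limma). Of all genes tested, 15.6% rose and 21.5% fell. At an unadjusted p-value below 0.05, 0 of the 7 were higher and 4 lower. Hdac5 fell by 1.75 (SE 0.10, adjusted p = 2.4e-05), from 148, 153 and 142 TPM to 43.0 and 44.2 TPM. Hdac7, a class IIa deacetylase of lymphocytes, fell by 0.76 (SE 0.15, adjusted p = 0.0074), and Mef2d fell by 0.50 (SE 0.13, adjusted p = 0.020).

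Meis1 and Hoxa9 were expressed in all libraries and did not pass the test. Meis1 (chr11:18780433-18918961, minus strand, mm9, with Gm16140 and Gm16141 on the opposite strand) held 10.9, 14.1 and 12.9 TPM in wild-type, 11.5 and 11.6 TPM in Pax5(-/-) and 10.8, 11.9 and 12.8 TPM in Meox2-cre. Hoxa9 (chr6:52173099-52181088, minus strand, mm9) held 4.00, 5.35 and 4.43 TPM in wild-type, 4.50 and 5.38 TPM in Pax5(-/-) and 5.57, 5.08 and 4.73 TPM in Meox2-cre. Its span overlaps RP23-329P9.11, 9930038K12Rik and Mir196b on the same strand. The groups overlapped for both genes. The log2 fold changes were -0.11 for Meis1 (SE 0.17, adjusted p = 0.63) and 0.10 for Hoxa9 (SE 0.22, adjusted p = 0.75), and that of Hoxa9 was -0.02 without Pax5(-/-) replicate 2.

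Some neighbours of Hoxa9 on the chromosome passed the test. Of 11 Hoxa entries, a set completed after values were seen, 6 were tested, 3 rose and 0 fell. Hoxa7, the next gene of the cluster, rose by 1.14 (SE 0.19, adjusted p = 0.0037), from 13.3, 17.7 and 11.5 TPM to 31.2 and 31.6 TPM. Hoxa6 rose by 1.01 (SE 0.27, adjusted p = 0.024) and Hoxa5 by 0.99 (SE 0.28, adjusted p = 0.029), both from means below 5 TPM. Hoxa3 had a log2 fold change of 0.77 (adjusted p = 0.056) and Hoxa4 of -0.15 (adjusted p = 0.72). Hoxa10, on the other side of Hoxa9, was at most 0.395 TPM in any wild-type or Pax5(-/-) library. Whether the changes of Hoxa7 and Hoxa9 differ was not tested.

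**Figure D3:**
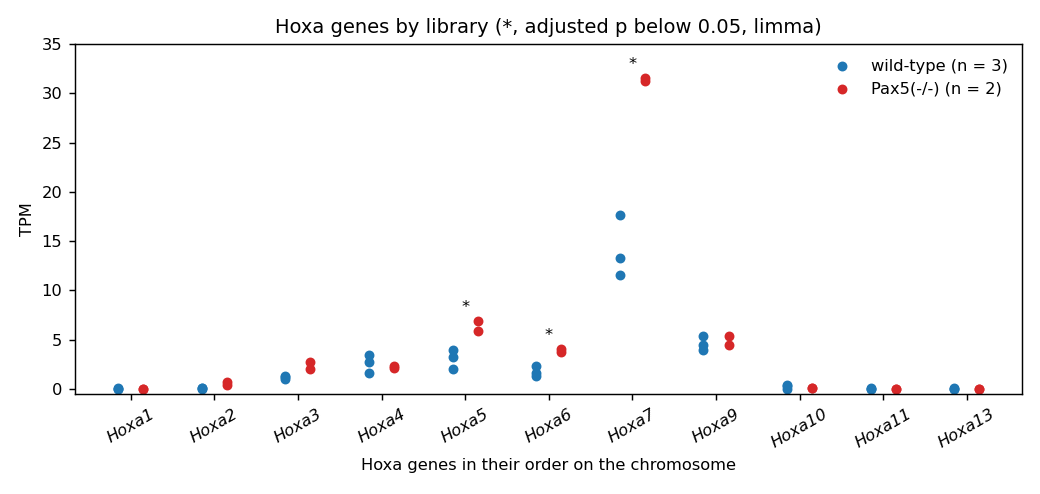
TPM of the 11 Hoxa genes in their chromosomal order in 3 wild-type (blue) and 2 Pax5(-/-) (red) libraries, 1 point per library. An asterisk marks an adjusted p-value below 0.05. Hoxa5, Hoxa6 and Hoxa7 carry one, with Hoxa7 near 31 TPM in Pax5(-/-), while the points of Hoxa9 overlap.

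Unlike Hoxa5, Hoxa6 and Hoxa7, which rose, some other genes of the same homeobox list fell. Pbx3, which binds DNA with homeobox partners, fell by 1.11 (SE 0.26, adjusted p = 0.013) from a mean of 2.44 to 0.871 TPM. Pknox1, a relative of Meis1, fell by 0.85 (SE 0.14, adjusted p = 0.0033) from 55.5 to 30.4 TPM in the means. Pbx2, a relative of Pbx3, at 122 to 136 TPM in wild-type and 153 and 154 TPM in Pax5(-/-), did not pass, and neither did Hoxb4.

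Other stem and progenitor factors gave 3 that rose and 1 that fell among 9 tested. Hmga2, a chromatin protein of fetal and self-renewing cells, rose by 2.86 (SE 0.28, adjusted p = 2.9e-04), from 8.34, 4.61 and 4.25 TPM to 44.5 and 41.2 TPM, while the Meox2-cre libraries held 2.00, 1.69 and 2.00 TPM. Etv6, an ETS repressor required by adult stem cells, rose by 1.02 (SE 0.16, adjusted p = 0.0025), and Spi1, which encodes the myeloid and early lymphoid factor PU.1, rose by 1.01 (SE 0.16, adjusted p = 0.0026) from a mean of 175 to 348 TPM. Egr1, an immediate early factor linked to stem cell quiescence, fell by 2.15 (SE 0.21, adjusted p = 2.9e-04), from 16.2, 24.4 and 20.4 TPM to 4.34 and 3.92 TPM. Mecom and Hlf, which mark long-term stem cells, were below 0.4 TPM in all libraries.

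Over the whole partner list, 52 of 60 genes were tested, 10 rose and 17 fell, beside 15.6% and 21.5% of all genes tested, with a median log2 fold change of -0.17. Of the 52, 2 met the limits for a regulated gene as higher (Hmga2 and Runx2) and 4 as lower (Egr1, Gata1, Hdac5 and Tcf3). Over all genes tested, 2.71% met these limits as higher and 3.15% as lower. Both Pax5(-/-) libraries lay above every wild-type library for 14 of the 52 and below for 22, beside 26.1% and 37.4% of all genes tested. With only 1 Pax5(-/-) library kept, fewer partners passed, as was so over all genes tested.

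**Figure D4:**
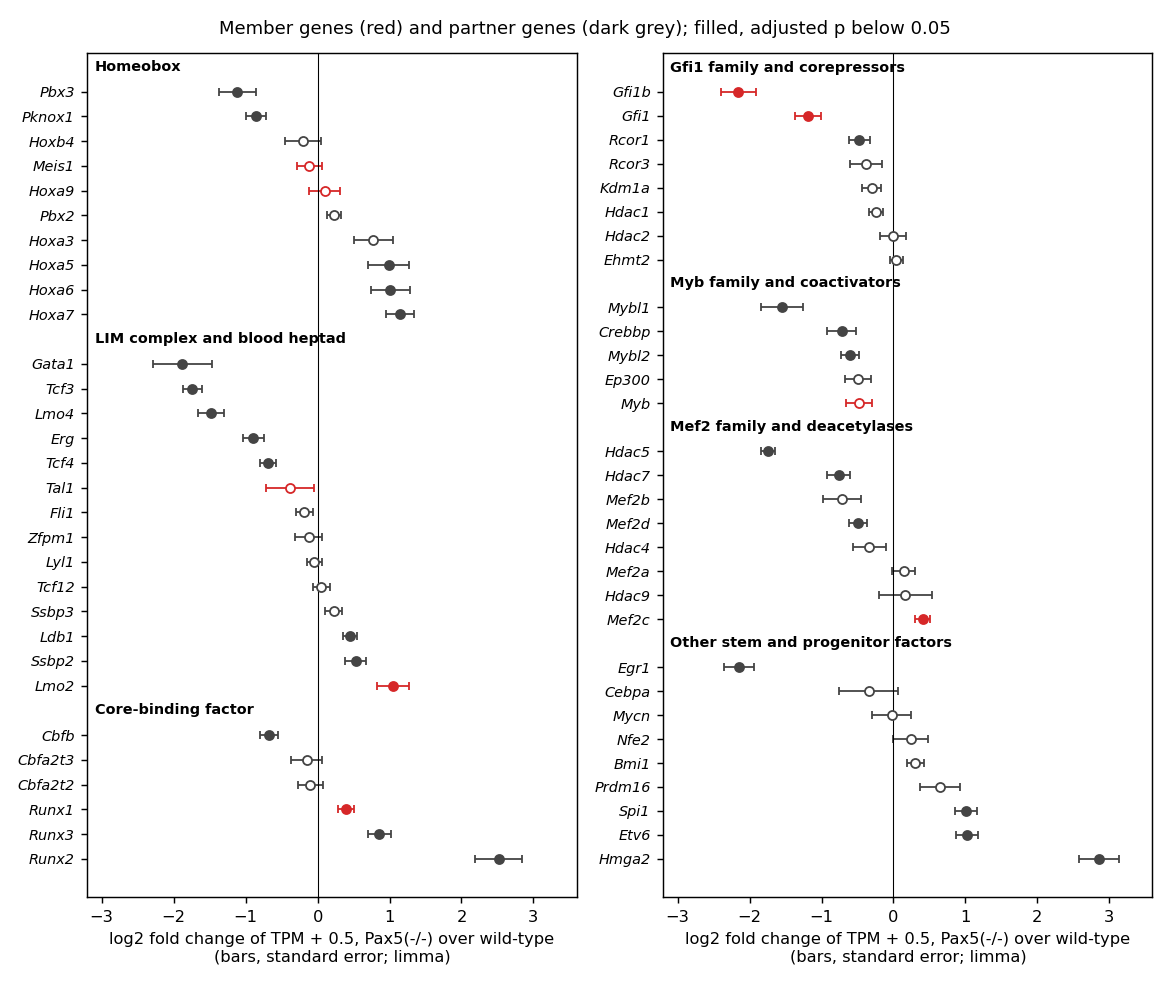
Log2 fold change of TPM + 0.5, Pax5(-/-) over wild-type (x axis), of the 9 tested members (red) and the tested partners (dark grey), grouped by role, with 1 of the 52 not drawn. Points are limma estimates from 3 wild-type and 2 Pax5(-/-) libraries, bars are standard errors and filled points have an adjusted p-value below 0.05. Gfi1b lies furthest left of the red points, at -2.16, and Lmo2 furthest right, at 1.05.

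Surface genes of stem and multipotent progenitors moved in the same libraries as Lmo2, Runx1 and Mef2c. The summed TPM of 7 such genes was 32.8 to 51.7 in wild-type, 524 and 608 in Pax5(-/-) and 45.0 to 50.5 in Meox2-cre, and of 6 tested 4 rose (Flt3, Cd27 and Ly6a among them) and 1 fell (Slamf1). Flt3, a receptor of multipotent and lymphoid progenitors, went from 11.1, 18.1 and 15.7 TPM to 327 and 388 TPM. With Cd27, at 145 and 167 TPM in Pax5(-/-), Flt3 made up most of the Pax5(-/-) sums. Cd34 did not pass (log2 fold change 0.99, adjusted p = 0.13 by limma). Procr, a defining marker of long-term stem cells, was listed at 0 in all wild-type libraries and was 0 and 0.109 TPM in Pax5(-/-). The part of a different mix of progenitors in the rise of Lmo2, Runx1 and Mef2c was not tested.

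For each tested member, the gene whose values followed it most closely was sought over the 5 mm9 libraries, as the Euclidean distance between log2(TPM + 0.5) values after each gene's mean was taken off, among 12065 other genes. Slc11a2, a ferrous iron transporter, was nearest to Gfi1b (distance 0.17), with means of 21.4 TPM in wild-type and 4.28 TPM in Pax5(-/-). H2-Q4, a class I histocompatibility gene, was nearest to Lmo2 (0.12), with means of 117 and 226 TPM. Hjurp, a centromere histone chaperone, was nearest to Gfi1 (0.11), with means of 7.29 and 2.80 TPM. Ppp4r2 was nearest to Myb (0.07), Tmem201 to Runx1 (0.04), Prkrir to Mef2c (0.04), Crebl2 to Tal1 (0.09), Ubxn2a to Meis1 (0.03) and Itm2c to Hoxa9 (0.09). With 5 libraries these distances describe the pattern only.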

How the data were processed

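RNA-seq of 8 sorted pro-B cell samples was examined. For the 3 wild-type and 2 Pax5(-/-) libraries, the authors filtered out ribosomal RNA reads, ran TopHat 1.4.1a on mm9 and counted per gene, without regard to strand, with featureCounts 1.5.0 and a modified refGene. The 3 Meox2-cre libraries were aligned by STAR 2.4.2a to mm10. The deposited values are TPM, made by the authors from counts and gene lengths; the counts themselves were not used here, nor were the ChIP samples. TPM sum to the same total in each library, so depth in reads is unknown and no counting interval is given.

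The test between wild-type and Pax5(-/-) was limma 3.58.1 (R 4.3.3; lmFit and trended eBayes) of log2(TPM + 0.5). No covariate was used. It covered the 12066 genes whose mean exceeded 1 TPM in either genotype, and Benjamini-Hochberg adjustment ran over all of them. Fold changes are on this scale, which understates changes of low genes. Rose and fell mean an adjusted p-value below 0.05. A regulated gene also changed more than 3-fold, had a mean above 5 TPM in 1 genotype and was no immunoglobulin or T cell receptor gene, limits taken from the study's methods. The fit was tested on simulated data. Meox2-cre libraries were not tested against the others, because build and software differ. Ratios were compared by exact permutation over libraries.

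Members, 60 partner genes and 57 marker genes were matched by the symbol before any suffix of the entry name. The members and lists were chosen with earlier results of these data known. All members are named, and partners where they passed, except for some genes that are not reported here. Hoxa4 and the other Hoxa genes outside the list were added after values were seen. The nearest gene in pattern was taken per member. Coordinates are from the GENCODE annotation of mm9, and promoters from RefSeq. Alternatives were pseudocounts of 0.1 and 1, other filters, variance priors and scalings, a fold limit of 2, a test against 3-fold and leaving out each library. Tables and figures were made with Python 3.11.15, pandas 2.3.3, numpy 2.4.6 and matplotlib 3.10.9.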

Additional observations from a re-analysis of the deposited data

How the results depend on the processing

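Across pseudocounts, filters, variance priors and scalings, the count of members that fell stayed at 2 and that of members that rose at 3, except for 2 that rose with a variance prior without trend. Rescaling by median ratios moved the median log2 fold change of all genes from -0.12 to -0.003. Leaving out single libraries gave 1 to 4 members lower and 0 to 3 higher, and 6 to 20 partners lower and 3 to 11 higher, with the lowest counts where a single Pax5(-/-) library was left, which was assumed to vary like the wild-type libraries. A fold limit of 2 gave 2 members called lower and 1 called higher, and testing against 3-fold gave 0 called lower. The log2 fold change of Hoxa9 ran from -0.0195 without Pax5(-/-) replicate 2, a reversed sign with an adjusted p-value of 0.97, to 0.216 without Pax5(-/-) replicate 1. Without the antigen receptor genes, and with the rest rescaled, the mean of Gfi1 in Pax5(-/-) was 15.6 TPM and that of Runx1 in Meox2-cre 69.6 TPM. Where no cause is named, the cause was not tested. The log2 ratio of Gfi1 to Gfi1b differed by 0.77 to 1.16 under both pseudocounts and without each library, the alternatives run for it. No paired analysis was possible because the replicate numbers follow no label and only name the libraries. Depth in reads is unknown, which limits what can be said above all of Gata2.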

Other observations

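Markers of 2 further lineages were summed in the same libraries. T and NK cell genes summed to 2.89, 10.2 and 7.64 TPM in wild-type, 5.25 and 7.84 TPM in Pax5(-/-) and 9.08 to 10.3 TPM in Meox2-cre. Of 2 tested, Cd4 rose (log2 fold change 2.38, adjusted p = 8.6e-04 by limma) and Klrb1c fell (-1.69, adjusted p = 0.035). Plasmacytoid dendritic cell genes summed to 83.1, 124 and 104 TPM in wild-type, 122 and 174 TPM in Pax5(-/-) and 125 to 142 TPM in Meox2-cre. Of 2 tested, Siglech rose (log2 fold change 2.20, adjusted p = 0.031 by limma) and 0 fell. Wild-type replicate 1 was the lowest of the mm9 libraries in both sums. Gata3, a T cell factor related to Gata2, was 0.118 to 0.232 TPM in wild-type and 0.691 and 0.510 TPM in Pax5(-/-), too low to be tested.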
